A study of Homo sapiens with 15 samples.

Results

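The comparison described here set 3 messenger RNA libraries of KO-1, a clone of HCT116 cells labelled bktRNA1-/-, against 3 libraries of wild-type (WT) HCT116 cells. HCT116 is an established human colorectal carcinoma line. The libraries were 6 of the 15 in the series, which also held 3 libraries each of the clones KO-2, KO-3 and KO-4, and the study gave the triplicates as coming from separate experiments. No treatment or time point was given for either group, and the labels used here do not describe what kind of RNA bktRNA1 is. Introns were chosen by 1 rule: in the deposited table of intron retention for KO-1 against WT, an intron entered when the 6 libraries averaged at least 10 retained-intron junction reads and at least 10 spliced reads. The rule kept 18804 of 90007 introns listed for this pair, while 111143 introns were listed for any of the 4 clones. The spliced reads of all listed introns were also summed by gene name, which gave 9557 tested genes of 10638 listed. KO-1 is 1 clone and WT is 1 line, so each p-value speaks of the spread between libraries of this clone and this line and not of bktRNA1 loss in general. The table does not measure bktRNA1 itself.

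Introns are removed from a transcript by spliceosomes of a major and a minor kind. The minor spliceosome, built on the U11, U12, U4atac and U6atac RNAs, removes U12-type introns, a rare class marked by a long and nearly invariant sequence at the 5′ end. The major spliceosome removes all others and reads a shorter, looser 5′ sequence. Genes with U12-type introns carry mostly introns of the major kind beside them and are common in DNA repair, RNA processing, vesicle transport and RAS to MAPK signalling. A retained intron usually keeps a transcript in the nucleus or exposes it to decay, so retention and the amount of spliced RNA of a gene are separate readouts.

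The 5′ ends of introns could be read for 9832 of the 18804 tested introns, those whose first bases also lie inside another annotated exon of the GENCODE v29 transcripts (GRCh38, hg38). The first 8 bases of each intron were compared with GTATCCTT and ATATCCTT, the letters of a U12-type 5′ end, on the strand of the gene. No other part of the intron was compared. In the counts below, an intron called U12-type is one with such a 5′ end, and which spliceosome removes it was not tested. In all, 126 of the 9832 introns read (1.28%) matched with at most 1 mismatch. A 5′ end shared by several listed introns, as in GMFB and TMPO, counts once for each of them. The sequences below are shown because introns with these letters had a larger share of rises than the other introns read. Each begins with the last 5 exon bases, and capitals mark the first 8 bases of the intron. The first 8 belong to introns whose retention rose in KO-1, beginning with GT or, in E2F6 and GMFB, with AT.
MYH10 intron 7: aacatGTATCCTTtttcata
PARP1 intron 22: aacgaGTATCCTTtcttgag
ACTL6A intron 5: acagcGTATCCTTgaaagag
LSM5 intron 2: tgtcaGTATCCTTttaaaag
RPL4 intron 3: gaaacGTATCCTTtgtttca
HARS intron 4: tcactGTATCTTTctaaact
E2F6 intron 4: gaaagATATCCTTtaagtct
GMFB intron 4: cctcgATATCCTTttcttag
The next end carries the same letters in the 1 such intron whose retention fell.
TCEA2 intron 6: ggaatATATCCTTtgggtag
The following pair missed the rule with 2 mismatches each, yet held 2 of the rises with the smallest p-values.
UBL5 intron 2: tgcaaGTATCCACtggcagc
CIAO2B intron 1: cttcgATATCCGCcgctgct
The last 3 are introns directly downstream of a U12-type intron, whose own ends differ from the motif at 4 or more bases and which rose too.
PSMA1 intron 6: atgatGTAAGTTCattgaat
GMFB intron 5: tgttgGTAAGTGAatttctt
HARS intron 5: agtgtGTGAGTGTtgggaaa

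KO-1 libraries held 17860503 to 21110388 junction reads and WT libraries 29569951 to 35075480, so the KO-1 levels rest on fewer reads. Retained-intron reads made up 13.45% to 13.57% of junction reads in KO-1 and 12.51% to 13.51% in WT. The median retention level of a library was 8.96% to 9.40% in KO-1 and 7.31% to 9.55% in WT, so the groups overlapped. The keratins KRT8 and KRT18, which mark the epithelial origin of the line, did not pass the test (log2 changes of 0.05 and -0.06). Of 10 epithelial markers of HCT116, 7 were tested, and EPCAM, CLDN7, ESRP1 and ELF3 were fewer in KO-1 while KRT19 was more. Markers of blood cells (0 of 4) and endothelium (0 of 3) had no intron in the table used here. Of 3 neural markers, SYT1 was tested and had more spliced reads, with 1455, 1444 and 1752 in KO-1, against 1138, 1106 and 1136 in WT (log2 change 0.45).

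Retention rose in KO-1 for 243 introns, 1.29% of those tested, and fell for 33, or 0.175%, in a quasi-binomial model with limma's moderated dispersion at a Benjamini-Hochberg adjusted p of 0.05 over all 18804 introns. The rises fell in 187 genes and the falls in 31. Introns that overlap an annotated exon held 128 of the rises and 29 of the falls, beside 54.8% of tested introns. There, reads counted as retained can come from transcripts with that exon, and how many do was not tested. The median rise was 1.52 on the log2 scale of the odds of a retained against a spliced transcript, with median levels of 14.8% in KO-1 and 5.2% in WT. The median fall was -1.20, with 22.0% in KO-1 and 40.4% in WT. The 2 groups of libraries did not overlap in 237 of the 243 rises and 32 of the 33 falls, beside 2939 of all 18804 tested introns. The calls rest on the same reads, so these counts are no separate support. In 36 of the 243 rises the mean of retained reads was 10 or more in KO-1 and under 10 in WT, so these entered through the group where they are high, and they had to differ. The introns named below in MYH10, SRP68, AHCTF1, ALG6, STX6, RAB6A and PARP1 and intron 6 of HARS2 are among them. So are the introns of PEX16 and CTSA, intron 2 of CNIH4 and intron 5 of E2F6. The fall of EPHX2 entered through WT in the same way. The median of all tested introns was itself shifted by 0.13 towards higher retention in KO-1. After centring on that shift, 147 introns rose and 67 fell, so rises made up 68.7% of calls in place of 88.0%.

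The largest rise was in MYH10, which encodes the heavy chain of non-muscle myosin IIB. Its intron 7 of 40 (chr17:8552145-8553954, minus strand) lies in the coding region and was retained at 25.8%, 18.2% and 28.4% in the KO-1 libraries, against 0.917%, 0% and 0% in the WT libraries. WT held 1 retained read in all, against 23, 20 and 19 in the KO-1 libraries, so every KO-1 library lay far above WT, and no fold is given. The intron reached the read minimum through KO-1 alone, so the values are a description with no test. The intron was not tested in the other clones.

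Intron 8 of 11 of AP1M2 (chr19:10577357-10578891), which encodes the medium subunit of an epithelial clathrin adaptor, was retained at 14.5%, 15.2% and 30.9% in KO-1, against 1.09%, 1.85% and 1.5% in WT. The last KO-1 library listed was the highest, and no library overlapped (log2 odds change 3.94 ± 0.45 (SE), adjusted p = 6.76e-10). The same transcript had fewer spliced reads, as given with the genes below. In SRP68, a subunit of the signal recognition particle, intron 1 of 15 (chr17:76070445-76072307) stood at 2.39%, 2.90% and 1.52% in KO-1, against 0.157%, 0.156% and 0.257% in WT. These were low levels, with a change of 3.66 ± 0.59. The SRP68 intron reached the read minimum through KO-1 alone, so its values are a description with no test.

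Introns 19 and 20 of 35 of AHCTF1, which encodes the nucleoporin ELYS, rose side by side. These introns and those of ALG6, STX6 and RAB6A below reached the read minimum through KO-1 alone. Their values are a description with no test. AHCTF1 intron 20 (chr1:246885681-246887210) was at 22.1%, 10.5% and 12.5% in KO-1, against 2.27%, 2.30% and 0% in WT, a change of 3.60 ± 0.71. Intron 7 of 14 of ALG6 (chr1:63407127-63411145), a glucosyltransferase of N-glycan assembly, was at 31.1%, 51.9% and 22.8% in KO-1, against 4.92%, 4.84% and 2.38% in WT. The KO-1 values spread widely yet stayed above WT (3.60 ± 0.64), and intron 8 rose by 3.38 beside it. In STX6, a syntaxin of the trans-Golgi network, intron 2 of 7 (chr1:181002701-181005293) was at 18.9%, 21.8% and 22.5% in KO-1, against 3.65%, 2.44% and 2.64% in WT. Its KO-1 libraries lay close together (3.18 ± 0.46). The Golgi GTPase gene RAB6A rose in its last intron (chr11:73677963-73679653), at 3.57%, 4.63% and 4.93% in KO-1, against 1.28%, 0.669% and 0.662% in WT (2.42 ± 0.43). In C11orf80, intron 10 of 16 was the most retained of these, at 46.9%, 37.0% and 55.6% in KO-1, against 8.41%, 16.9% and 18.0% in WT (2.46 ± 0.51, adjusted p = 6.91e-04). For the introns of this paragraph and the last one, the other clones' changes, where they could be fitted, ran from 0.99 (RAB6A in KO-4) to 3.05 (AHCTF1 intron 20 in KO-3) against the same WT libraries.

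**Figure D1:**
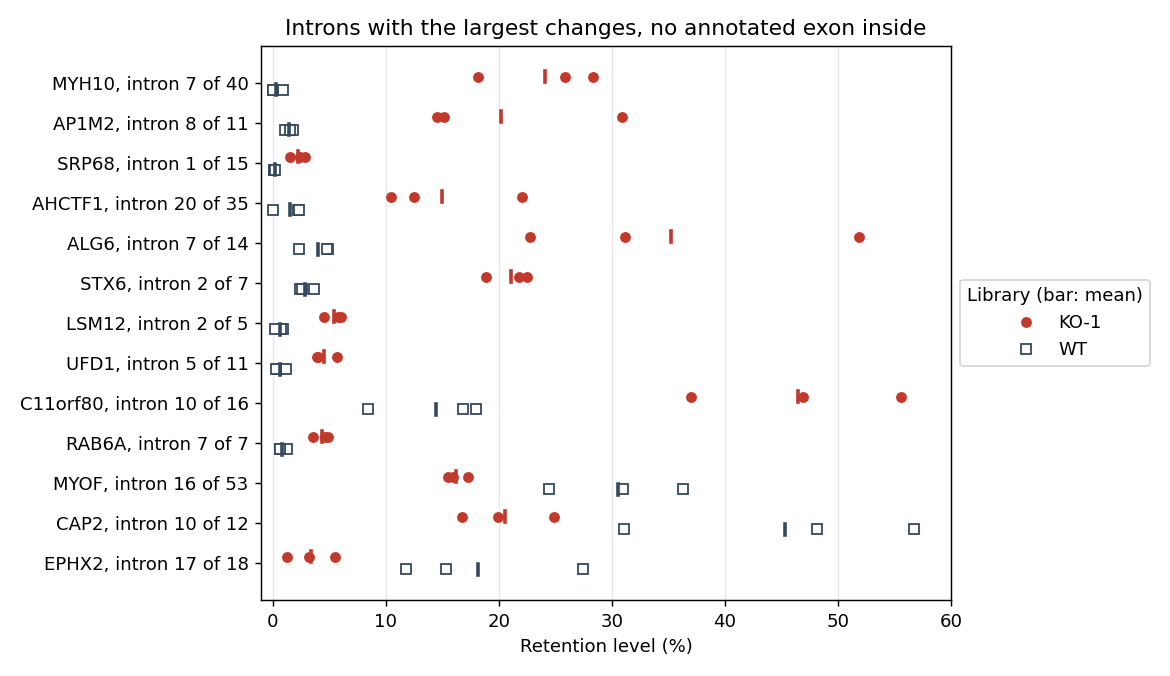
Retention level in percent (x axis) of the introns with the largest rises and falls among those with no annotated exon inside, for each KO-1 library (filled circles) and WT library (open squares), with bars at the group means. The first 10 introns have every KO-1 library above every WT library, and the last 3 (MYOF, CAP2 and EPHX2) have every KO-1 library below.

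The smallest p-value of all belonged to UBL5, which encodes a ubiquitin-like protein with a role in splicing. Its intron 2 of 4 (chr19:9828394-9828591, 198 nt) was retained at 20.02%, 18.2% and 18.9% in KO-1, against 5.48%, 5.02% and 6.31% in WT. Both groups were tight and far apart (2.002 ± 0.12, adjusted p = 5.64e-22). CIAO2B, a member of the cytosolic iron-sulfur assembly machinery, had its intron 1 of 4 (chr16:66934067-66934222) at 27.4%, 29.8% and 26.8% in KO-1, against 8.39%, 7.76% and 9.48% in WT. This was likewise a narrow spread (2.07 ± 0.18, adjusted p = 1.72e-14), in an intron that overlaps an annotated exon. The changes of both introns in the other clones lay between 1.27 and 1.61.

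Among introns with a U12-type 5′ end, 46 of 126 rose (36.5%, Wilson 95% interval 28.6% to 45.2%) and 1 fell, against 80 rises among 9706 introns with 2 or more mismatches (0.824%). The introns of UBL5 and CIAO2B given above are among the 80. The median change was 0.96 for the first kind and 0.11 for the second. The share was 46.7% for ends without a mismatch (35 of 75) and 21.6% for those with 1 (11 of 51). Introns starting with AT (10 of 29) and with GT (36 of 97) rose in similar shares, 34.5% and 37.1%. Of the 46 rises, 7 (15.2%) reached the read minimum through KO-1 alone, beside 1.21% of all tested introns, and these had to differ. The letters of the motif were known from earlier results of these data to go with the rises, so the shares describe these introns.

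Per library, the median log2 odds of the 126 introns relative to each intron's WT mean was 1.11, 0.98 and 0.88 in KO-1, against -0.01, -0.13 and 0.21 in WT. All 3 KO-1 libraries were above all WT libraries. For the 9651 other introns whose ends were read the medians were 0.14, 0.11 and 0.09 in KO-1, against 0.01, -0.18 and 0.18 in WT, and here the groups overlapped. The second WT library listed was the lowest and the last listed the highest in both kinds.

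PARP1, the DNA damage sensor that builds poly(ADP-ribose), kept its last intron (22 of 22, chr1:226361542-226361968) in 3.74%, 2.01% and 2.54% of transcripts in KO-1, against 0.200%, 0.244% and 0.349% in WT. The change was 3.45 ± 0.60. The PARP1 intron reached the read minimum through KO-1 alone, so its values are a description with no test. In ACTL6A, an actin-like subunit of chromatin remodelling complexes, intron 5 of 13 (chr3:179574468-179576216) was at 14.9%, 20.8% and 18.2% in KO-1, against 3.63%, 2.53% and 2.85% in WT (2.83 ± 0.34, adjusted p = 8.04e-10). The KO-1 libraries stood apart. LSM5, a subunit of the Sm-like ring on U6 RNA, had intron 2 of 4 (chr7:32488653-32489248) at 7.69%, 6.54% and 6.42% in KO-1, against 1.73%, 0.788% and 1.67% in WT (2.44 ± 0.34, adjusted p = 5.28e-08). In ACTL6A and LSM5 every KO-1 library was above every WT library. The ribosomal protein gene RPL4 showed the same at a far lower level in intron 3 of 9 (chr15:66502751-66503057), with 1.03%, 0.954% and 0.932% in KO-1, against 0.566%, 0.498% and 0.472% in WT (0.93 ± 0.13, adjusted p = 5.83e-07).

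The exception was TCEA2, which encodes a transcription elongation factor. Its intron 6 of 9 (chr20:64069822-64070259) stood at 5.96%, 7.60% and 9.09% in KO-1, against 23.5%, 20.4% and 18.6% in WT. The KO-1 libraries were all below WT (-1.71 ± 0.45, adjusted p = 0.0233), and the gene had more spliced reads in KO-1, with a log2 change of 0.94.

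Some introns next to one with a U12-type 5′ end in the same transcript rose too. Of 96 such neighbours without a matching 5′ end of their own, among them ends that could not be read, 20 rose (20.8%, interval 13.9% to 30%), with a median change of 0.55. Of these 20 rises, 3 (15%) reached the read minimum through KO-1 alone, beside 1.21% of all tested introns. Where the U12-type intron itself rose, 16 of 37 neighbours did (43.2%, median 1.02). Of 235 introns of the same genes that were not next to the U12-type intron, 4 rose (1.70%, median 0.14). The library medians of the 96 neighbours were 0.64, 0.51 and 0.59 in KO-1, against 0.01, -0.27 and 0.25 in WT, again without overlap.

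In GMFB, a glia maturation factor that acts on actin branches, intron 5 of 6 (chr14:54479860-54480873) was at 5.80%, 4.76% and 5.01% in KO-1, against 1.42%, 1.28% and 2.23% in WT (1.75 ± 0.39, adjusted p = 0.00279). Its U12-type intron 4 (chr14:54480957-54481408) rose by 1.84 ± 0.34 beside it. HARS, the cytosolic histidyl-tRNA synthetase, had intron 5 of 12 (chr5:140678016-140679001) at 11.1%, 11.9% and 11.1% in KO-1, against 4.80%, 3.58% and 8.06% in WT (1.20 ± 0.27, adjusted p = 0.00409). The U12-type intron 4 before it was at 4.69%, 5.96% and 5.30% in KO-1, against 1.16%, 1.94% and 1.54% in WT (1.81 ± 0.35). In both genes the groups did not overlap at either intron. The pairs in which both introns rose also included PEX16, SSR2, CNIH4, E2F6 and LSM5. Both PEX16 introns, intron 2 of CNIH4 and intron 5 of E2F6 reached the read minimum through KO-1 alone.

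**Figure D2:**
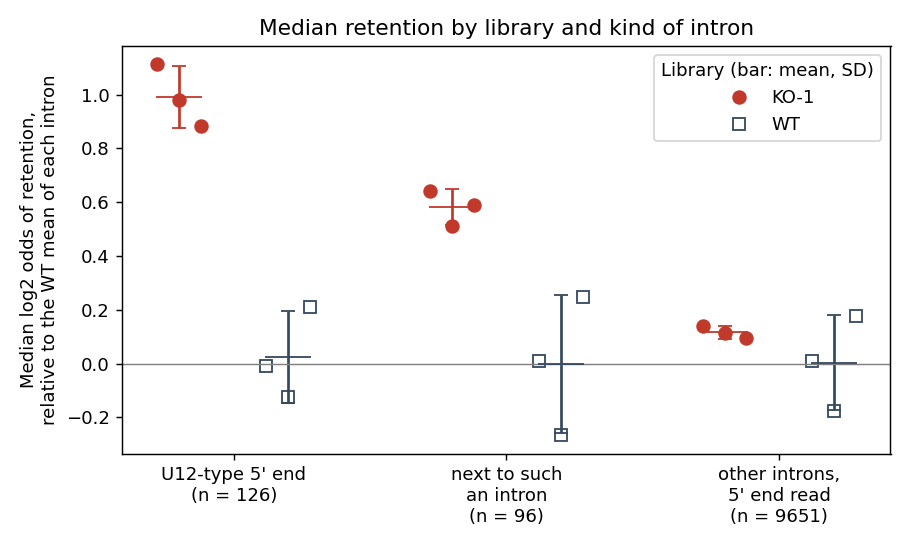
Median log2 odds of retention relative to the WT mean of each intron (y axis) in each KO-1 library (filled circles) and WT library (open squares), with means and SD bars, for introns with a U12-type 5′ end, for introns next to one and for the other introns with a 5′ end that was read. KO-1 libraries lie between 0.88 and 1.11 in the first kind, between 0.51 and 0.64 in the second and between 0.09 and 0.14 in the third.

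Rises were spread unevenly over lengths. Of 3023 tested introns of at most 150 nt, 16 rose (0.529%, Wilson 95% interval 0.326% to 0.858%), against 117 of 8362 introns of over 150 and up to 1000 nt (1.40%, 1.17% to 1.67%) and 102 of 6898 of over 1000 and up to 10000 nt (1.48%, 1.22% to 1.79%). Above 10000 nt, 8 of 521 rose (1.54%, 0.780% to 3%). The shortest class thus had the lowest share of calls, and the other 3 had overlapping intervals. The median change of all introns in a class was similar, at 0.11, 0.12, 0.14 and 0.12 from the shortest to the longest. The median length was 827 nt for rises, 910 nt for falls and 655 nt for all tested introns. Among introns with 2 or more mismatches to the U12-type motif, the shortest class was again the lowest, with 5 of 1762 (0.284%), against 46 of 4553 (1.01%) in the next class.

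By position, 194 of 12725 middle introns rose (1.53%, 1.33% to 1.75%), against 29 of 2746 first introns (1.06%, 0.736% to 1.51%) and 20 of 3063 last introns (0.653%, 0.423% to 1.01%). None of the 244 introns that are the only one of their transcript rose (0%, interval up to 1.55%). Introns within the coding region held 227 of the 243 rises (227 of 15634, 1.45%), while 11 of 1791 in a 5′ UTR (0.614%) and 2 of 525 in a 3′ UTR (0.381%) rose. Of the 33 falls, 8 were in a 5′ UTR (24.2%, beside 9.53% of tested introns) and 9 in first introns (27.3%, beside 14.6%). Among introns with 2 or more mismatches to the U12-type motif, 59 of 6546 middle introns rose (0.901%, 0.699% to 1.16%), against 12 of 1416 first introns (0.848%, 0.485% to 1.48%) and 9 of 1634 last introns (0.551%, 0.290% to 1.04%), with overlapping intervals. By retention level in WT, rises made up 1.76% of the 6757 introns at 0% to 5% in WT, 1.32% of the 3250 at 10% to 20%, 0.353% of the 849 at 60% to 80%, and 0 of 692 at 80% to 100% (interval up to 0.552%). The WT level is itself part of the change and bears on the read minimum, so nothing is read from this order. Introns with no annotated exon inside held 4 of the 33 falls (12.1%) and 115 of the 243 rises (47.3%), beside 45.2% of tested introns.

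**Figure D3:**
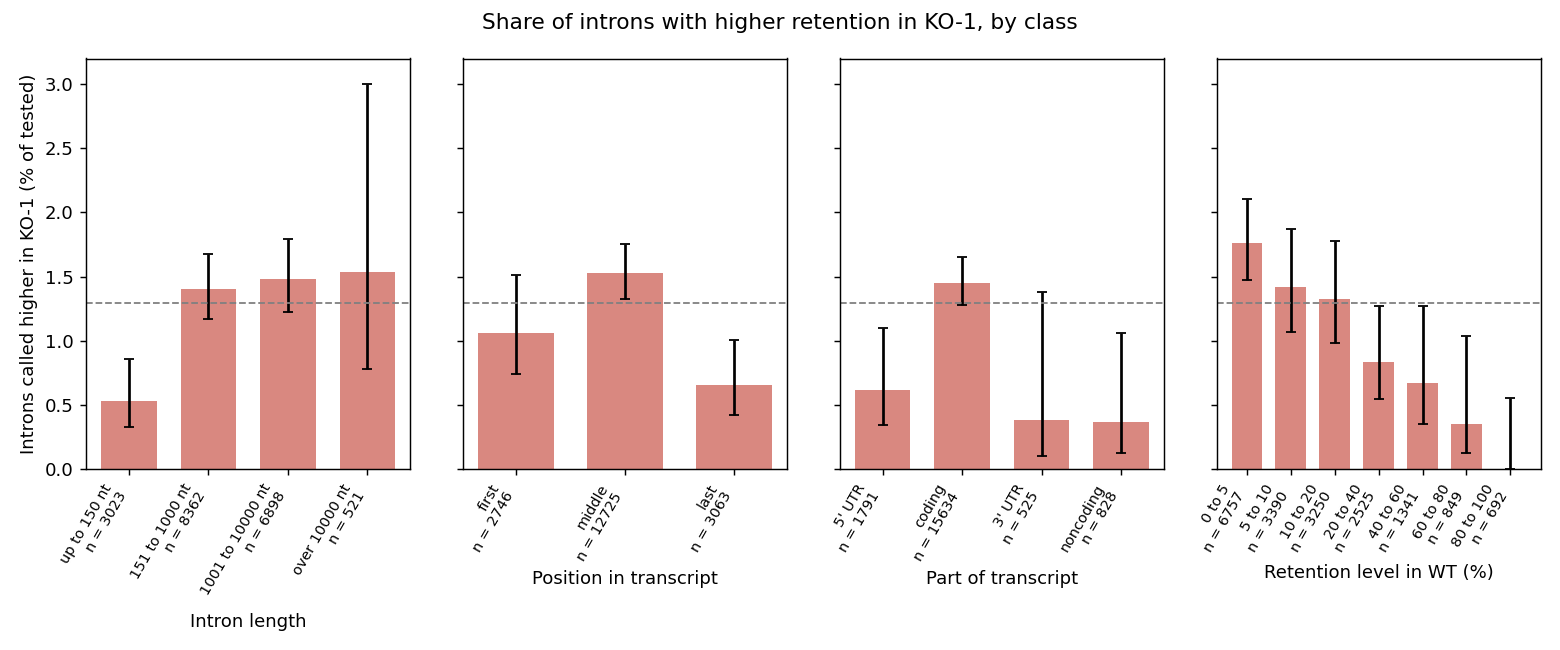
Share of tested introns called higher in KO-1 than in WT (y axis, percent), by intron length, position in the transcript, part of the transcript and retention level in WT. Bars are shares, lines are Wilson 95% intervals and the dashed line is the share over all tested introns, 1.29%. By length the share is lowest in introns of at most 150 nt (0.529%), and among the 3 positions drawn it is lowest in last introns (0.653%).

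In 41 genes 2 or more introns rose. XPO5, the exporter of microRNA precursors, rose in introns 23, 24 and 26 of 31 (2.32 ± 0.36, 2.02 ± 0.34 and 1.13 ± 0.29). Intron 23 (chr6:43528926-43530687) was at 16.8%, 20.2% and 13.5% in KO-1, against 4.62%, 4.16% and 3.13% in WT, with no overlap. USP10, a deubiquitinase, rose in the adjoining introns 4, 5 and 6 of 13, by 1.86 ± 0.41, 1.74 ± 0.34 and 1.88 ± 0.36. INSIG1, which holds back sterol regulatory proteins in the endoplasmic reticulum, rose in introns 2, 3 and 4 of 5, with intron 3 (chr7:155301691-155302250) at 5.37%, 6.71% and 4.17% in KO-1, against 1.01%, 1.56% and 0.757% in WT (2.35 ± 0.40, adjusted p = 7.15e-06). HARS2 is the mitochondrial enzyme and a close copy of HARS, so that reads could be shared. It rose in introns 5 and 6 of 13. Intron 6 (chr5:140695634-140695737) was at 7.75%, 6.78% and 10.8% in KO-1, against 2.85%, 1.5% and 0.626% in WT (2.35 ± 0.51). That intron reached the read minimum through KO-1 alone, so its values are a description with no test. In XPO5 and INSIG1, each intron given with its levels had every KO-1 library above WT.

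GAS6, the ligand of the AXL receptor, rose in introns 2, 3 and 5 of 14. Its intron 2 was at 25%, 14.3% and 45.1% in KO-1, against 5.56%, 4.83% and 17.0% in WT, where the lowest KO-1 library lay below the highest WT library (2.19 ± 0.57, adjusted p = 0.0259). The same intron had changes of -0.71 ± 0.56 in KO-2 and 0.08 ± 0.51 in KO-4 against the same WT libraries. HNRNPD, an RNA-binding protein of messenger RNA decay, rose in 5 of the 6 introns tested. An intron of the coding region (chr4:82358821-82359470) was at 1.82%, 1.30% and 1.58% in KO-1, against 0.737%, 0.436% and 0.960% in WT (1.21 ± 0.28, adjusted p = 0.0102). A 3′ UTR intron of HNRNPD (chr4:82355002-82355303) was at 92.0%, 90.8% and 88.8% in KO-1, against 80.4%, 73.1% and 77.4% in WT (1.53 ± 0.44, adjusted p = 0.0313). Neither intron overlapped between groups, and spliced reads of the gene fell by 0.62 on the log2 scale. The 3′ UTR intron overlaps an annotated exon, so its levels need not be of a whole retained intron. CD44, the hyaluronan receptor with many alternative exons, rose in 8 of 19 tested introns and fell in 1. ESRP1, the epithelial regulator that acts on CD44 exons, had fewer spliced reads in KO-1, and its part in these introns was not tested.

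Falls were fewer and mostly in introns that overlap annotated exons. Among them are the introns of CLDN7 and JUP with levels below, so these levels need not be of whole retained introns. EPHX2, the soluble epoxide hydrolase, had its intron 17 of 18 at 1.30%, 5.56% and 3.23% in KO-1, against 11.8%, 15.3% and 27.5% in WT (-2.51 ± 0.72). The intron reached the read minimum through WT alone, so its values are a description with no test. Only 1, 6 and 2 retained reads stood behind the KO-1 values. MYOF, a ferlin of membrane repair, fell in the adjoining introns 16 and 17 of 53, with intron 16 (chr10:93392956-93396141) at 15.5%, 15.9% and 17.3% in KO-1, against 31.0%, 24.4% and 36.3% in WT (-1.20 ± 0.27, adjusted p = 0.00493). CLDN7, a tight-junction claudin, fell in intron 1 of 4 (chr17:7262344-7263158), at 79.3%, 73.2% and 72.2% in KO-1, against 93.1%, 93.8% and 94.7% in WT (-2.35 ± 0.36, adjusted p = 7.14e-06). Its intron 2 went the other way, by 1.27 ± 0.24. JUP, the junction protein plakoglobin, fell in its last intron (chr17:41755433-41755729), at 38.1%, 38.7% and 36.8% in KO-1, against 59.3%, 54.5% and 59.3% in WT (-1.14 ± 0.14, adjusted p = 2.63e-08). In MYOF, CLDN7 and JUP every KO-1 library was below every WT library.

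By pathway, the list of genes known to carry U12-type introns had 33 rises and 4 falls among 202 tested introns, with a median of 0.38, beside 0.13 for all introns. The lists of lysosome and autophagy genes (6 of 98, median 0.34), SR proteins, hnRNPs and their kinases (15 of 314, 0.20) and the major spliceosome (5 of 131, 0.26) had shares of 6.12%, 4.78% and 3.82%, beside 1.29% overall. The lysosomal rises included VPS16, a subunit of vesicle tethering complexes, and CTSA, a lysosomal protective protein. The CTSA intron reached the read minimum through KO-1 alone. The 4 rises of RAS and MAPK signalling (of 67 introns) included the kinase gene ARAF and the receptor gene FGFR1. All 8 rises of the WNT and MYC list (of 86) were in CD44. Ribosomal protein introns, 406 in all, had 8 rises and 2 falls (1.97%, median 0.10). No intron was called in the lists of p53 targets (51 tested), interferon response (31), TGF-beta and BMP signalling (36), mesenchymal identity (25) or oxidative stress and metal response (64), at the adjusted p of 0.05 in the same model.

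At the level of genes, 1135 had more spliced reads in KO-1 (11.9% of 9557) and 1011 had fewer (10.6%), by limma on log2 scaled sums at an adjusted p of 0.05. Most of these differences were small. The median was 0.37 for genes with more and -0.32 for genes with fewer, and 47 genes were at least 2-fold higher while 28 were at least 2-fold lower. The groups did not overlap in 1073 of the 1135 genes and 979 of the 1011, beside 3600 of all 9557 tested genes. In bulk RNA, fewer cells expressing a gene and less RNA in each cell cannot be told apart. Spliced reads here come only from introns in the retention table, so a gene's sum covers part of its transcript.

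Among genes averaging at least 200 reads, the largest rise was in SUSD2. SUSD2, a cell-surface protein with a sushi domain, had 6910, 7537 and 8447 normalised spliced reads in KO-1, against 894, 822 and 1035 in WT. Every KO-1 library was far above WT, with a log2 change of 3.06 ± 0.08 (SE, adjusted p = 7.15e-16). TGM2, which crosslinks proteins of the matrix, had 1245, 1388 and 1930 in KO-1, against 302.5, 294 and 395 in WT (2.19 ± 0.13, adjusted p = 4.45e-10). SEMA3A, a secreted guidance signal, had 446, 500.4 and 541 in KO-1, against 158, 131 and 140.4 in WT (1.79 ± 0.12, adjusted p = 1.97e-09). Neither gene overlapped between groups. PLK2, a stress-responsive polo-like kinase, had 7577, 7458 and 7489 in KO-1, against 2342, 2477 and 2946 in WT (1.54 ± 0.07, adjusted p = 3.76e-12). Also up were PDGFC, a growth factor (1.37 ± 0.11), SLC20A1, a phosphate transporter (1.32 ± 0.09), and APOBEC3B, a cytidine deaminase (1.18 ± 0.11).

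The largest drop was in MAL2, a membrane protein of transcytosis in polarised epithelium, with 69.0, 60.9 and 69.6 normalised spliced reads in KO-1, against 882, 969.6 and 978 in WT (-3.81 ± 0.12, adjusted p = 5.57e-15). S100A14, a calcium-binding protein, had 287, 183 and 274 in KO-1, against 2228, 2014 and 2177 in WT (-3.13 ± 0.12, adjusted p = 5.53e-13). ACSL5, which activates fatty acids, had 763, 787 and 814 in KO-1, against 6298, 6017 and 7178 in WT (-3.04 ± 0.07, adjusted p = 6.49e-17). All 3 were lower in every KO-1 library than in any WT library. AP1M2, whose intron 8 rose, had 778, 675 and 626 in KO-1, against 2917, 2707 and 2695 in WT (-2.01 ± 0.08, adjusted p = 5.53e-13). ST14, the epithelial protease matriptase, had 1795, 1654 and 1614 in KO-1, against 4647, 4742 and 4877 in WT (-1.495 ± 0.06). CWF19L1 had 406, 480.1 and 397 in KO-1, against 1345, 1369 and 1363 in WT (-1.67 ± 0.09), with changes of -0.24 in KO-2 and KO-3 and -0.08 in KO-4 against the same WT libraries. Further falls were in PAM, which amidates peptides (-1.64 ± 0.07), the kinase STK39 (-1.33 ± 0.07), the desmosomal cadherin DSC2 (-1.29 ± 0.09), the choline transporter-like SLC44A2 (-1.21 ± 0.07) and the receptor EPHA1 (-1.18 ± 0.11).

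**Figure D4:**
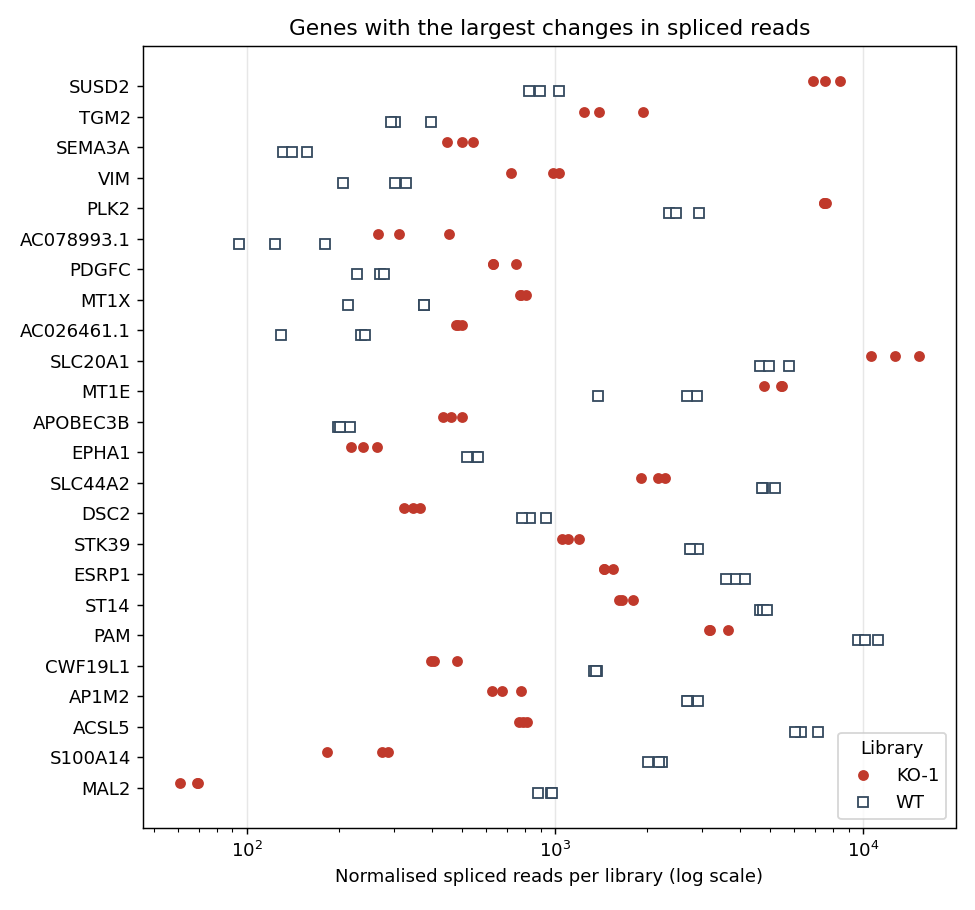
Normalised spliced reads per library (x axis, log scale) of the 12 genes with the largest rises and the 12 with the largest falls among those averaging at least 200 reads, for KO-1 (filled circles) and WT (open squares). No gene has overlapping groups, and SUSD2 (6910 to 8447 in KO-1) and MAL2 (60.9 to 69.6 in KO-1) lie farthest from WT. AC026461.1 shares an intron with MT1X.

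Most called genes of the colon epithelial list fell and most called genes of the mesenchymal list rose. Of all tested genes, 11.9% had more and 10.6% had fewer spliced reads. Of 21 tested epithelial genes, 11 fell (52.4%) and 1 rose (4.76%), with a median of -0.33, beside 0.001 for all genes. ESRP1, an epithelial splicing regulator, had 1542, 1441 and 1447 in KO-1, against 3888, 3593 and 4130 in WT (-1.39 ± 0.06, adjusted p = 6.53e-12). EPCAM, an epithelial adhesion molecule, had 4189, 3451 and 3626 in KO-1, against 7541, 7891 and 8039 in WT (-1.06 ± 0.07, adjusted p = 5.33e-10). Neither overlapped, and CLDN7 (-0.89), the plakophilins PKP3 (-0.71) and PKP2 (-0.69), and OCLN (-0.39) fell with them. KRT19 rose by 0.24, while KRT8, KRT18, ESRP2, CDX2 and JUP did not pass the test and lay between -0.06 and 0.05. Of 20 mesenchymal genes, 8 rose (40%) and ITGB1 fell (5%), with a median of 0.17. VIM, the intermediate filament vimentin, had 720.0, 985 and 1032 in KO-1, against 205, 330.0 and 302 in WT (1.72 ± 0.15, adjusted p = 9.06e-08). SPARC (1.04), the receptor AXL (0.84), the matrix oxidase LOXL2 (0.83) and S100A4 (0.77) rose as well, and FN1 rose by 0.41. COL1A1 (0.18) and SNAI1 (-0.28) did not pass. VIM, FN1 and SPARC are also fibroblast markers, and the neural marker SYT1 rose as well. Of the 8 fibroblast markers, COL1A2, COL3A1, DCN and LUM had no intron in the table used here, and the part of any other cell type in these rises was not tested.

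The metallothioneins, small metal-binding proteins, led the oxidative stress and metal list. Of its 24 genes, 9 rose (37.5%, beside 11.9% of all genes) and none fell (beside 10.6%), with a median of 0.11. MT2A had 8479, 9429 and 8230 in KO-1, against 3310, 4977 and 4435 in WT (1.06 ± 0.10, adjusted p = 2.20e-07). MT1E had 5417, 5460 and 4766 in KO-1, against 1380, 2896 and 2691 in WT (1.24 ± 0.17, adjusted p = 2.07e-05). The WT library listed first was the lowest in both. MT1X rose by 1.33 ± 0.15. These genes are near-identical copies, and how reads were divided between them is uncertain. TXNRD1 (0.41) and PGD (0.21), enzymes that supply reducing power, rose by less, while NQO1 (-0.04), HMOX1 (-0.17) and GCLM (0.30) did not pass the test.

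The counts of the next lists stand beside 11.9% of all genes with more and 10.6% with fewer spliced reads. In TGF-beta and BMP signalling, 8 of 19 genes rose (42.1%) and 3 fell (15.8%), with a median of -0.01. The rises included the ligand BMP4 (0.77 ± 0.07), the inhibitory SMAD6 (0.78) and the target ID2 (0.60). The targets ID1 (-0.25) and ID3 (-0.34) and the repressor TGIF1 (-0.28) fell. Of 26 p53 targets, 6 rose (23.1%) and 1 fell (3.85%), with a median of 0.16. The cell-cycle inhibitor CDKN1A had 1813, 2145 and 2057 in KO-1, against 1215, 1169 and 1190 in WT (0.75 ± 0.07, adjusted p = 3.08e-07), without overlap, and BAX, which promotes cell death, fell by 0.35. Of 23 interferon genes, 6 rose (26.1%), led by ISG20 (0.81) and IRF9 (0.64), and HLA-B fell. For IRF9, 8 of the 9 listed introns are shared with another gene name, so its sum is not of IRF9 alone. Of 17 WNT and MYC targets, 7 fell (41.2%) and 2 rose (11.8%), with a median of -0.11. MYC had 711, 596 and 523 in KO-1, against 1002, 933 and 822.5 in WT (-0.60 ± 0.10, adjusted p = 3.24e-04), whereas the WNT inhibitor DKK1 rose by 1.01. Of 32 RAS and MAPK genes, 7 rose (21.9%) and 5 fell (15.6%). The rises were in EPHA2 (0.80), DUSP6 (0.58), FOSL1 (0.37), HRAS (0.30), FGFR3 (0.28), IER3 (0.28) and ETV4 (0.22). The falls were in the receptor ligands AREG (-0.42), EREG (-0.44) and TGFA (-0.48) and the receptors ERBB2 (-0.33) and ERBB3 (-0.47).

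Sterol and fatty acid synthesis had 10 falls and 4 rises among 32 genes (median 0.02). The enzymes SQLE (-0.62), HMGCS1 (-0.33) and FDFT1 (-0.23) fell, while the regulator SREBF1 rose by 0.57 ± 0.06. Of 29 glycolysis and hypoxia genes, 4 rose (13.8%) and 5 fell (17.2%). The largest rises were in the glucose transporter SLC2A3 (2.34 ± 0.25, at 1 listed intron) and in ENO2 (0.56), and the largest falls in HK2 (-0.80) and ADM (-0.67). Of 57 nuclear transport genes, 10 fell and 1 rose (median -0.08), and of 58 major spliceosome genes, 8 fell and 1 rose (median -0.08). Minor spliceosome genes had 4 rises of 16, in ZRSR2 (0.60), RNPC3 (0.45), CRIPT (0.35) and ZCRB1 (0.18), and a fall in PPIL2 (-0.61), in which intron 2 rose as well. Oxidative phosphorylation had 6 rises and 3 falls of 74 genes (8.11% and 4.05%). DNA repair had 4 and 4 of 49 (8.16% each), box C/D particle and snoRNA host genes 3 and 3 of 28 (10.7% each), and SR proteins, hnRNPs and their kinases 6 and 8 of 46 (13.04% and 17.4%).

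**Figure D5:**
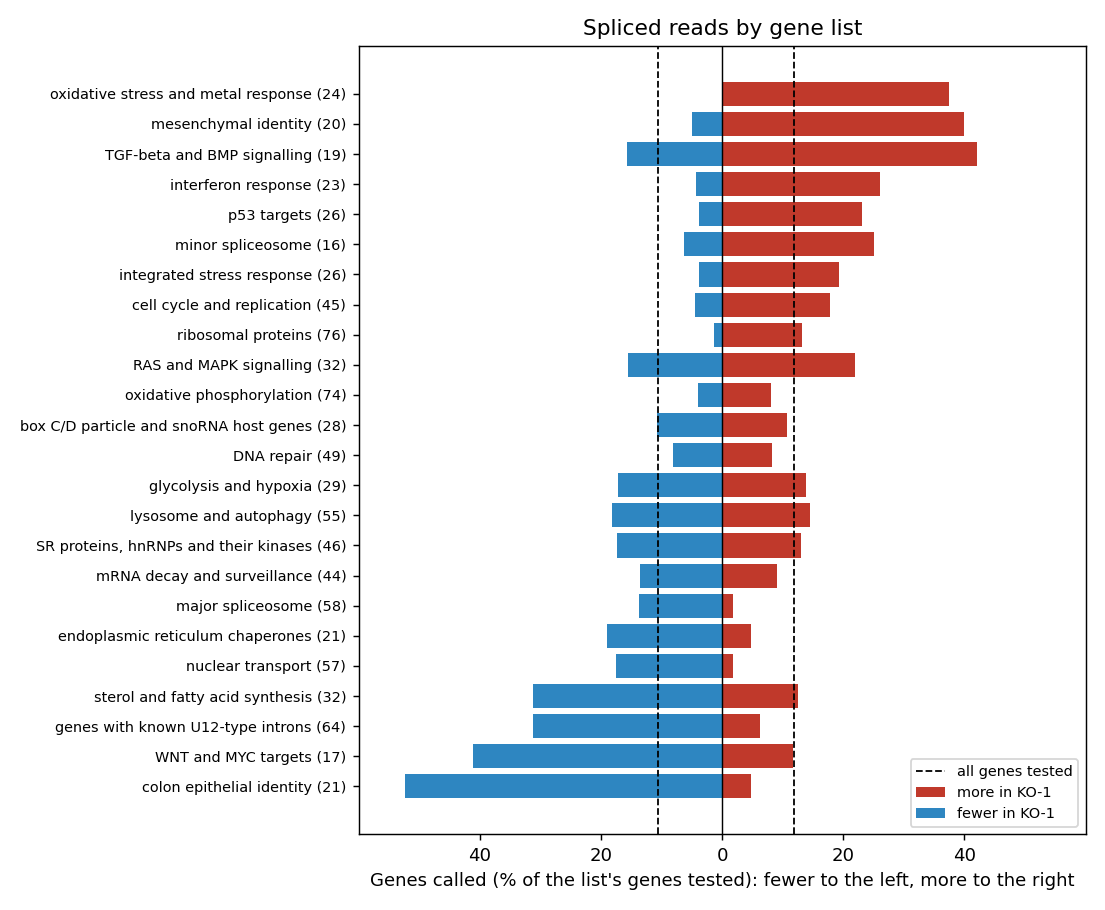
Share of tested genes, in each list with at least 10 of them, with more (right, red) or fewer (left, blue) spliced reads in KO-1 than in WT, in percent, with the number tested after each name. Dashed lines are the shares over all tested genes, 11.9% and 10.6%. Colon epithelial identity reaches farthest to the left, with 11 of 21 genes, and TGF-beta and BMP signalling farthest to the right among the lists drawn, with 8 of 19.

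Both readouts were set side by side for the genes with a called intron. Of 191 gene names with an intron that rose, 55 had fewer spliced reads (28.8%, beside 10.6% of all genes) and 15 had more (7.85%), with a median of -0.07. With the called introns left out of the sums, 49 fell and 18 rose, with a median of -0.04. The 5594 genes with tested but uncalled introns had 596 falls (10.7%) and 765 rises (13.7%). Of 47 names with a U12-type intron that rose, 11 fell and 4 rose. ACTL6A fell by 0.56 ± 0.06, CIAO2B by 0.57 ± 0.07, LSM5 by 0.39 ± 0.09 and XPO5 by 0.24 ± 0.06. AHCTF1 went the other way, with a rise of 0.30 ± 0.07 beside its retained introns. Of the list of 64 genes known to carry U12-type introns, 20 fell and 4 rose (median -0.12). Of 33 names with an intron that fell, 11 rose and 6 fell, and with the called introns left out of the sums 9 rose and 8 fell of 32. A retained transcript yields no spliced read at that intron, so the readouts share reads where the called introns are not left out.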

How the data were processed

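Messenger RNA of KO-1 and WT HCT116 cells was sequenced in 3 libraries each. Per the submitters' processing notes, reads were handled with cutadapt 2.0 and STAR 2.7.1a on hg38. The deposited tables list, per intron, retained and spliced junction counts of each library within 1 cell, with effective lengths, inclusion levels as fractions and the authors' p-values, per the file headers. Replicate numbers are absent from these cells, and a library is called by its place in them. Every listed intron had at least 20 junction reads in each library.

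Retention was recomputed from counts and lengths and differed from the deposited inclusion levels by at most 5.00e-04. Introns with means of at least 10 retained and 10 spliced reads were tested with a quasi-binomial model whose dispersion was moderated with limma 3.58.1 in R 4.3.3 and floored at 1. Spliced counts were summed over distinct introns for every gene named in a cell. In place of the planned negative-binomial count test, limma was run on log2 of sums scaled by median ratios (0.5 added), for genes averaging at least 50 reads. P-values were adjusted by Benjamini-Hochberg over all introns or all genes, two-sided, at 0.05. Both steps were tested on simulated data. Intron rank, part of the transcript and 5′ bases came from GENCODE v29, taking the principal transcript first, and 99.73% of listed introns were found there. Introns with more than 1 gene name (3001) count for each name. Intervals on shares are Wilson 95% intervals, which cover counting error only and treat introns as independent.

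The members and lists were chosen with earlier results of these data known. Named introns were the 10 largest rises and up to 6 largest falls with no annotated exon inside (1 per gene, which left 3 falls), the 2 smallest p-values per length and position class, up to 3 called introns per list, and genes with 3 or more called introns. Named genes were the 12 largest in each direction among those averaging at least 200 reads, up to 4 called per list, and up to 5 per combination of directions at both levels. Other genes and introns, such as those of HARS, E2F6, PEX16, CNIH4, TCEA2, CTSA and further list members, were named after their values were seen, as examples of a motif, a neighbour or a list. Some genes are not reported here.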

Additional observations from a re-analysis of the deposited data

Results flagged for a closer look

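For the 24 genes and the introns with the largest changes, KO-1 was set beside the other clones, whose changes use the same 3 WT libraries. In 12 cases every library of another clone lay on the other side of all WT libraries from KO-1. The difference between clones was not tested. Of the genes higher in KO-1, KO-3 had a log2 change of -0.993 ± 0.141 (SE) in PDGFC, against 1.37 ± 0.11 in KO-1. In SLC20A1, KO-3 had -0.596 ± 0.0707 and KO-1 1.32 ± 0.09. In APOBEC3B, KO-3 had -0.518 ± 0.145 and KO-1 1.18 ± 0.11.

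The other 9 cases were genes that fell in KO-1. KO-3 had 0.425 ± 0.0673 in MAL2, against -3.81 ± 0.12 in KO-1, and 0.94 ± 0.077 in S100A14, against -3.13 ± 0.12. In AP1M2 the change was 0.783 ± 0.0559 in KO-3 and -2.01 ± 0.08 in KO-1. In ACSL5 it was 0.363 ± 0.0781 in KO-3 and -3.04 ± 0.07 in KO-1. ESRP1 and ST14 had 0.26 ± 0.063 and 0.144 ± 0.0479 in KO-3, and EPHA1 had 0.608 ± 0.0642. DSC2 was higher in KO-2 (0.407 ± 0.0611, against -1.29 ± 0.09 in KO-1) and STK39 in KO-4 (0.691 ± 0.0614, against -1.33 ± 0.07 in KO-1).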

How the results depend on the processing

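No paired analysis was possible because the lists of libraries carry no replicate numbers. Negative-binomial fits of the gene sums were not run. The counts of introns depended on the processing. The 243 rises became 120 with limma on the log2 odds, 73 with means of at least 50 reads, 147 after centring on the median intron and 90 without introns that hold an annotated exon, and became 363 by the authors' deposited adjusted p (211 of them shared) and 316 without the read minimum (232 shared). The 33 falls became 22, 16, 67 and 2 in that order, 90 by the authors' deposited adjusted p and 52 without the read minimum. Leaving out 1 library gave 97 to 522 rises and 14 to 51 falls. Rises numbered 97, 119 and 153 without the first, the second or the last KO-1 library listed, 160 without the second WT library and 522 without the last. Falls numbered 15, 14 and 14 without a KO-1 library and 51 without the second WT library. Rises with a U12-type 5′ end (46) became 16 with the higher read minimum and 16 without introns that hold an exon, with 33 to 58 when 1 library was left out. Rises among their neighbours (20) became 4 with limma on the log2 odds, 4 with the higher minimum, 13 centred and 10 without introns that hold an exon, with 7 to 28 when 1 library was left out (7, 7 and 12 without each KO-1 library, 12 without the second WT library). Middle introns were 79.8% of rises, beside 67.7% of all tested introns. They were 93.3% of rises without introns that hold an exon, and their share of the introns tested there was not computed. Genes with more spliced reads (1135) numbered 747 to 1101 with 1 library left out, the lowest without the second KO-1 library, and genes with fewer (1011) 702 to 942. Voom, a quasi-Poisson model and scaling by total spliced reads, added after seeing the data, gave 1014 to 1134 and 938 to 1097. The 11 epithelial falls ran from 9 to 12 and the 8 mesenchymal rises from 8 to 9. Of the named introns, 50 kept their call under every alternative that could be run for them, the other 51 lost it under at least 1, and none changed direction. The higher read minimum tested few of them (42 kept, 3 lost), as did the setting without exons (39 kept, 3 lost). Of 130 named genes, 114 kept it and none changed direction. KO-1 libraries held fewer reads than WT, which limits small changes at low levels, and 5′ ends were read for 52.29% of introns.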
